A study of Mus musculus with 7 samples.

Results

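Netrin-1, its receptors and the netrin antagonist draxin were followed in mouse embryonic stem cells in which NeuroD1, a helix-loop-helix factor of neuronal differentiation, was induced. The set holds 8 genes listed by name, with no threshold on their values but with earlier results of these data known, out of the 21937 that the authors listed: the ligand gene Ntn1, the receptor genes Dcc, Neo1, Unc5a, Unc5b, Unc5c and Unc5d, and 2610109H07Rik, the older symbol of draxin. All 8 were found and all 8 had a p-value. They lie apart in the genome, Unc5c on chromosome 3, draxin on 4, Unc5d on 8, Neo1 on 9, Unc5b on 10, Ntn1 on 11, Unc5a on 13 and Dcc on 18. The induced cells were A2lox embryonic stem cells of 129/Ola background that received doxycycline at 500 ng/ml for 48 h to switch on a NeuroD1 transgene, and the uninduced cells were the same transgenic line without the drug. Each RNA group had 2 polyadenylated RNA libraries. In both groups the cells had been weaned off their fibroblast feeders on gelatin, in medium with serum and LIF. The remaining samples, 2 NeuroD1 immunoprecipitations after 24 h of doxycycline and 1 input DNA, were not analysed here.

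Netrins are secreted, laminin-related proteins that steer growing axons and migrating cells. DCC, and in some settings its relative neogenin, conveys attraction, whereas UNC5 receptors, alone or together with DCC, convey repulsion. DCC and UNC5 proteins are also dependence receptors, which can promote cell death when no ligand is bound. Draxin is a secreted protein that binds DCC and netrin-1 and was described as a repellent of commissural and forebrain axons.

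Every level below is a group mean of normalized reads in the authors' deposited table, which gives no value for single libraries and no spread, and every p comes from the DESeq test of the authors, with Benjamini-Hochberg adjustment over 18283 genes. A gene is called where the adjusted p is 0.05 or less. The labels do not say whether replicate libraries were grown as separate cultures, and the p-values measure only the spread between them, which may be technical. No sample given here had the drug without the transgene, so the effects of doxycycline and of NeuroD1 cannot be told apart. In bulk RNA, fewer cells with a transcript and less transcript per cell cannot be told apart either. The authors' deposited table gave Neurod1 itself means of 4371 in induced and 438 in uninduced cells (adjusted p = 4.5e-274), with transgene and endogenous reads not separated. Of 7 embryonic stem cell markers 5 fell and 2 were not called, and their sum was 21647 in induced and 34138 in uninduced cells. All 8 neuron markers rose, with a sum of 17292 in induced and 1957 in uninduced cells, where Nhlh1 was listed at 0. Fibroblast markers summed to 4203 in induced and 3640 in uninduced cells, with 2 of 9 called higher and 2 called lower. Glial markers summed to 670.3 in induced and 453.5 in uninduced cells, with 1 of 7 called higher and 6 not called. Endothelial and blood markers summed to 1235 in induced and 2198 in uninduced cells, with 1 of 6 called higher and 2 called lower. That sum largely follows Pecam1, with 296 in induced and 1262 in uninduced cells. Tek, also called lower, had 383 in induced and 644 in uninduced cells, and Kdr, called higher, had 337 in induced and 159 in uninduced cells. No fibroblast, glial, endothelial or blood marker was at 0 in either group, but some were close to it. Aqp4 had 0.464 in uninduced cells, and Ptprc had 0.997 in induced and 1.54 in uninduced cells. A mean of at least 10 over the 2 groups was reached by 8 of 9 fibroblast, 6 of 7 glial and 4 of 6 endothelial and blood markers. The part of these cell types in the results below was not tested.

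The sequences upstream of a receptor and an antagonist that rose and of a receptor that fell are shown first, because NeuroD1 belongs to the factors that bind E-boxes (CANNTG). They cover the 250 bases before the annotated start, from RefSeq on GRCm38.p6, in lower case with every CANNTG in capitals. Such windows were examined for 5 of the 8 genes, and not for Ntn1, Dcc or Unc5d.
Unc5c, chr3:141465314-141465563, + strand: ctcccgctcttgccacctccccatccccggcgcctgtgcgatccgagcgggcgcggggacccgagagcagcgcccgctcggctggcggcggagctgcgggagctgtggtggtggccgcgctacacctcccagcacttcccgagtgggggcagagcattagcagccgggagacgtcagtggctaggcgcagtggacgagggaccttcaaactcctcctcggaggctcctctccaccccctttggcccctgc
2610109H07Rik, chr4:148130699-148130948, - strand: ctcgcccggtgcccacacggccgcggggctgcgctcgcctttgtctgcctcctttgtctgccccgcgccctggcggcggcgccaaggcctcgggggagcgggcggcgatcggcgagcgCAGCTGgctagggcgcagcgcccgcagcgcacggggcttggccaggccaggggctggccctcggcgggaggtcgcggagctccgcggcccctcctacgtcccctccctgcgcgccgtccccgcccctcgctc
Unc5b, chr10:60831582-60831831, - strand: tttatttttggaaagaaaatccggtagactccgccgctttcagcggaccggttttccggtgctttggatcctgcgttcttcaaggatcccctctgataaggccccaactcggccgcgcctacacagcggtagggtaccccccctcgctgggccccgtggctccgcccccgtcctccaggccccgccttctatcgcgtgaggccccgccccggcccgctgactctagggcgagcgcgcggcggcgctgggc

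The draxin window held 1 E-box, the palindrome CAGCTG beginning 132 bases before the start. No E-box stood in the windows of Unc5c, Unc5b, Neo1 or Unc5a. Of all 32851 promoter windows of this length, 66.2% held at least 1 E-box, a motif that reads alike on both strands. The draxin hexamer, itself an E-box, stood in 13.0% of all windows. The E-box variant CAGATG, searched on both strands, stood in 14.4% of all windows and in none of the 5 members' windows. The windows of the members were rich in G and C, at 71.2% for Unc5c, 79.6% for 2610109H07Rik, 66.8% for Unc5b, 83.2% for Neo1 and 76.8% for Unc5a, beside a median of 52.4% over all windows. A match is a description of letters only, and a missing match says nothing about binding elsewhere at these genes.

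After 48 h of induction the transcripts for DCC, UNC5C, draxin and neogenin had risen, those for netrin-1 and UNC5B had fallen, and UNC5A and UNC5D passed no test. Dcc and Unc5c had very few reads in uninduced cells, whereas Neo1 and Unc5b were well expressed there already. Of the 8 members 4 were called higher and 2 lower. The background over all 18283 genes was 19.1% called higher, 16.4% called lower and 35.5% called in either direction. The median log2 change of the members with a pseudocount of 1 was 0.54, beside -0.0094 over all genes with a p. With a change of at least 2-fold required as well, 3 members were called higher and 1 lower, beside 7.48% and 4.2% of all genes (11.7% in either direction), since Neo1 and Unc5b moved by less. All 6 were also called at an adjusted p of 0.01 (28.6% of all genes called) and with p adjusted again over genes with a mean of at least 10 (46.1%) or 50 (50.2%). The median log2 change covers members that moved in opposite directions by very different amounts.

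**Figure D1:**
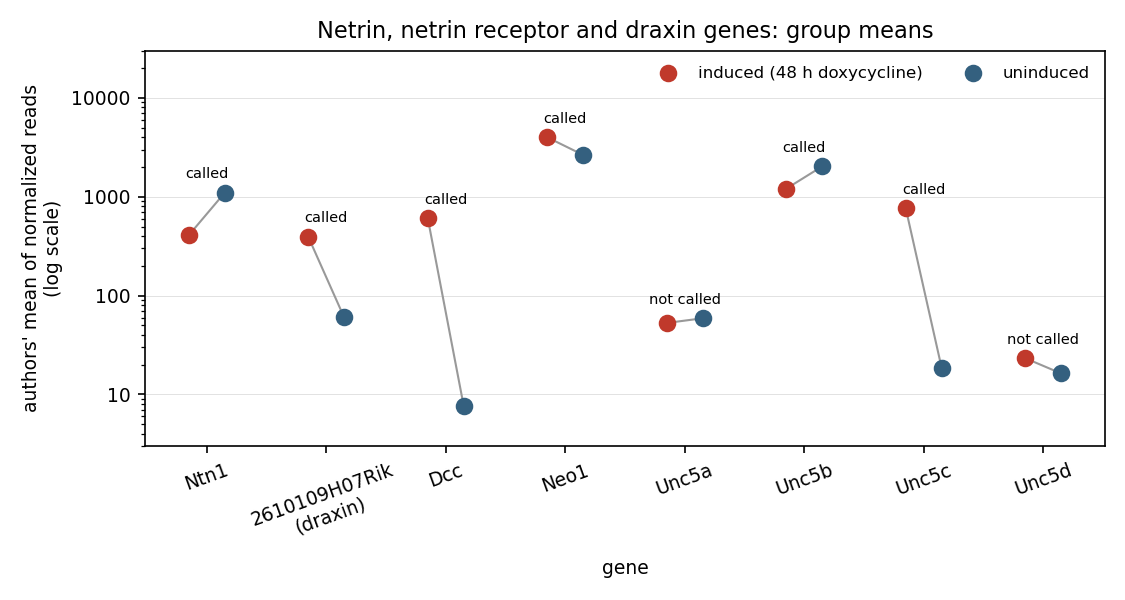
Mean normalized reads of the 8 genes (log axis) in induced (red, left of each pair) and uninduced cells (blue), as deposited by the authors with no spread. Dcc (605 in induced, 7.72 in uninduced cells) and Unc5c (761 in induced, 18.6 in uninduced cells) span the widest gaps on this axis, while Ntn1 and Unc5b are lower in induced cells.

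Among the ligands, Ntn1, which encodes netrin-1, had a mean of 408 in induced cells and 1096 in uninduced cells in the authors' deposited table. The fall came to 0.372 of the uninduced level, or -1.42 on the log2 scale (adjusted p = 0.00015 by the authors' DESeq test). It was the 216th strongest fall by fold among 11273 genes whose higher group mean was 100 or more. The netrin-1 transcript was thus lower in the group in which the DCC transcript was higher.
Draxin moved the other way. For 2610109H07Rik the authors' deposited table gave 393 in induced cells and 60.2 in uninduced cells, a 6.52-fold rise (log2 2.70, adjusted p = 6.1e-44). Draxin had the smallest adjusted p of the 8 genes although its fold was well below those of Dcc and Unc5c. By fold it stood in place 182 among the 11266 of these genes with a mean above 0 in uninduced cells.

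Dcc encodes the receptor through which netrin-1 attracts commissural axons. Its mean was 605 in induced cells against 7.72 in uninduced cells in the authors' deposited table, 78.4-fold (log2 6.29, adjusted p = 3.4e-28). This was the 17th largest rise by fold among the same 11266 genes. Neo1 encodes neogenin, which has the same domain plan as DCC and also binds repulsive guidance molecules. Its mean was 3991 in induced cells and already 2649 in uninduced cells, by the authors' deposited table, a 1.51-fold rise (log2 0.59, adjusted p = 5.4e-11). Both DCC-type receptor genes of the set therefore rose, Dcc above a trace level and Neo1 above a high one.

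The 4 UNC5 genes did not move as a block. Unc5c, whose loss in the mouse disturbs cerebellar development, had means of 761 in induced cells and 18.6 in uninduced cells in the authors' deposited table, 40.9-fold (log2 5.36, adjusted p = 5.3e-17). Unc5b, a receptor also known from blood vessels, had 1207 in induced cells and 2027 in uninduced cells there, 0.595 of the uninduced level (log2 -0.75, adjusted p = 0.00033 in the authors' deposited table). One UNC5 gene thus rose steeply while another fell.
For Unc5a the authors' deposited table gave 52.9 in induced and 58.9 in uninduced cells (log2 -0.16, adjusted p = 0.83). Unc5d had 23.2 in induced cells and 16.3 in uninduced cells (log2 0.51, adjusted p = 0.54 in the authors' deposited table). Reads of both genes were few, and a missed threshold does not show that their levels were equal.

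**Figure D2:**
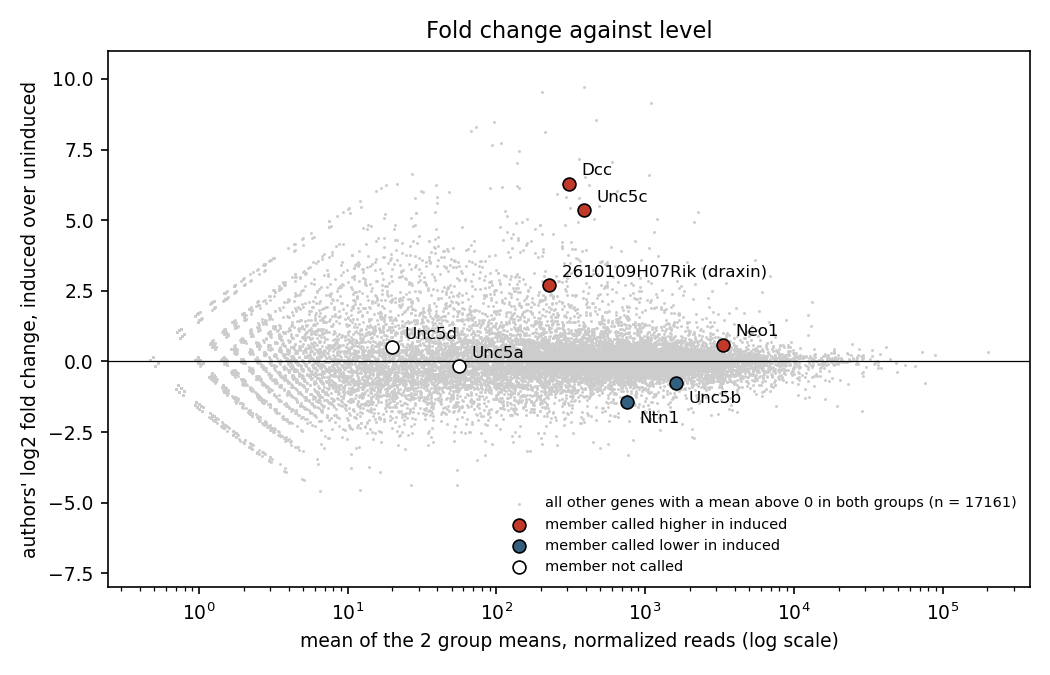
Authors' log2 fold change of induced over uninduced cells against the mean of the group means (log axis), with 17161 other genes in grey and the 8 members as large circles. Dcc at 6.29 and Unc5c at 5.36 lie near the upper edge of the cloud, Ntn1 at -1.42 and Unc5b at -0.75 below zero, and the open circles Unc5a and Unc5d were not called.

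Fold and p did not rank the members alike. The fall of Ntn1 was larger on the log2 scale than the rise of Neo1, -1.42 against 0.59, yet its adjusted p was the larger one, 0.00015 against 5.4e-11 in the authors' deposited table. The same held for Unc5b at -0.75 and 0.00033. The deposited table gives no spread from which the reason could be read.

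To set members side by side, group means were divided by the length of each gene's merged GENCODE M21 exons on GRCm38, a gene model that may differ from the authors'. In induced cells the levels per kilobase ran from Neo1 at 458 normalized reads through Unc5b at 193, draxin at 75.5, Ntn1 at 65.0, Dcc at 45.9, Unc5c at 39.8 and Unc5a at 12.7 to Unc5d at 2.52. In uninduced cells the order per kilobase was Unc5b at 324, Neo1 at 304, Ntn1 at 175, Unc5a at 14.1, draxin at 11.6, Unc5d at 1.77, Unc5c at 0.971 and Dcc at 0.586. Dcc was thus the lowest of the 8 before induction and stood above Unc5a and Unc5d after it. No spread is given, so neighbours in these orders cannot be separated beyond replicate error. With the longest transcript as length, Neo1 at 359 stood above Unc5b at 345 in uninduced cells, and in induced cells Unc5c came to 78.9 per kilobase, above draxin at 75.5, Ntn1 at 69.5 and Dcc at 58.6.

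The make-up of the receptor transcripts shifted accordingly. Summed over the 6 receptor genes, the level was 752 normalized reads per kilobase of merged exons in induced cells and 645 in uninduced cells. The UNC5 genes together made up 33.0% of that sum in induced and 52.8% in uninduced cells, and Neo1 made up 60.9% in induced and 47.1% in uninduced cells. Dcc accounted for 6.11% in induced and 0.0908% in uninduced cells. Within the UNC5 genes Unc5c held 16.04% in induced and 0.285% in uninduced cells, or 26.3% in induced and 0.529% in uninduced cells with the longest transcript as length. Unc5b still held 77.8% of the UNC5 sum in induced cells, against 95.0% in uninduced cells. These shares are ratios of the authors' means and carry no error.

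**Figure D3:**
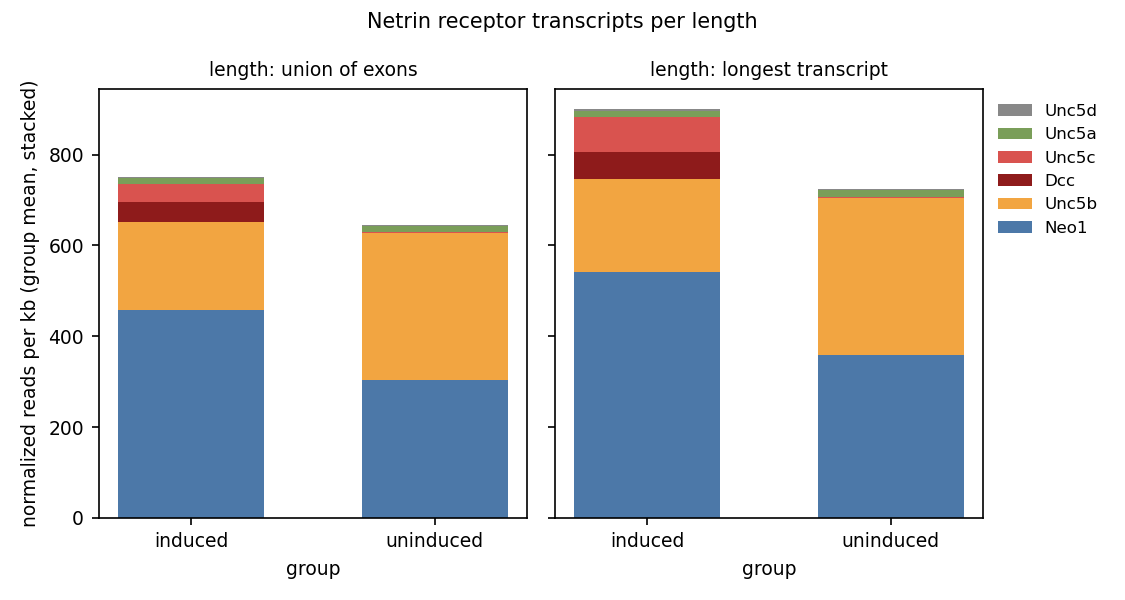
Stacked levels of the 6 receptor genes in normalized reads per kilobase, induced left of uninduced, with length taken as merged exons (left panel) or as the longest transcript (right panel). Neo1 and Unc5b fill most of each bar, and Dcc and Unc5c form clear bands in the induced bars and at most slivers in the uninduced ones.

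In the annotation 118 bases (0.617%) of the Unc5c exons overlap those of the antisense gene Gm15688, and 34 bases (0.816%) of the Unc5a exons overlap Hk3 on the opposite strand. Whether reads were counted by strand is not given in the sources used here. The exons of the other 6 members overlap no other gene there.

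The genes closest to Dcc in both group means, by distance of log2(mean + 1) in the 2 groups, included Dll4 and Chrna3. Dll4, a Notch ligand gene, had means of 503 in induced and 8.25 in uninduced cells in the authors' deposited table (distance 0.279). For Chrna3, a nicotinic acetylcholine receptor gene, the authors' deposited table gave 775 in induced and 8.47 in uninduced cells (distance 0.377). The likeness rests on 2 group means only.

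Several other netrin genes and netrin-G partners rose as well. Of 7 such genes 4 were called higher and 3 were not called, beside 19.1% of all genes called higher and 35.5% called in either direction. Their median log2 change at a pseudocount of 1 was 1.49 beside -0.0094 over all genes, and that middle value is the one of Ntng1, which was not called. Ntng2, which encodes the membrane-anchored netrin-G2, had 78.5 in induced and 1.39 in uninduced cells (adjusted p = 7.2e-20 in the authors' deposited table). Ntn4, a secreted netrin gene, had 88.5 in induced and 21.6 in uninduced cells (adjusted p = 3.9e-08 in the authors' deposited table). Ntn3, another secreted netrin gene, had 115 in induced and 51.8 in uninduced cells (adjusted p = 0.00012 in the authors' deposited table). Lrrc4, encoding a ligand of netrin-G2, had 66.4 in induced and 21.7 in uninduced cells (adjusted p = 0.00013 in the authors' deposited table). Ntn5, Ntng1 and Lrrc4c were not called and had means of 15.2 or less in both groups.

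Among 16 other ligands, co-receptors and relatives of DCC, neogenin and UNC5 proteins, 10 were called higher and 1 lower, beside 19.1% and 16.4% of all genes, with a median log2 change of 0.78 beside -0.0094 over all genes. All 16 reached a mean of at least 10, and among such genes 46.1% were called in either direction. Igdcc3, Igdcc4 and Prtg encode immunoglobulin-domain proteins of the DCC family. Igdcc3 had 2882 in induced and 479 in uninduced cells (adjusted p = 7.0e-158), the smallest p of this list in the authors' deposited table. Igdcc4 rose 2.32-fold (adjusted p = 4.4e-40) and Prtg 1.98-fold (adjusted p = 7.0e-40) in the authors' deposited table. Rgma, encoding a repulsive ligand of neogenin, rose 4.75-fold there (adjusted p = 9.8e-24 in the authors' deposited table). The gene that fell was Dscaml1, a relative of the adhesion receptor gene Dscam, with 106 in induced and 190.0 in uninduced cells (adjusted p = 0.00024 in the authors' deposited table).

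Of 34 genes for cytoplasmic partners of netrin receptors 17 were called higher and 3 lower, with a median log2 change of 0.24 beside -0.0094 over all genes. The background was 19.1% called higher and 16.4% lower over all genes, and 46.1% called in either direction among genes with a mean of at least 10, a level that all 34 reached. Nothing particular to the list is read from its count. Trim9, encoding a ubiquitin ligase that binds DCC, had 186 in induced and 0.928 in uninduced cells (adjusted p = 1.5e-51 in the authors' deposited table). Mtap1b, encoding a microtubule-associated protein of growing axons, rose 4.34-fold (adjusted p = 7.5e-50) and Trio, a guanine exchange factor for Rac, 2.38-fold (adjusted p = 1.1e-49) by the authors' deposited table. Tubb3, a neuronal tubulin gene that is also among the neuron markers, had means of 10149 in induced and 845 in uninduced cells (adjusted p = 5.2e-39 in the authors' deposited table). Among the lower genes Tiam1, a Rac exchange factor, fell to 0.838 of the uninduced mean and Appl1, an adaptor that binds DCC, to 0.856 (adjusted p = 0.022 and 0.023 in the authors' deposited table).

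**Figure D4:**
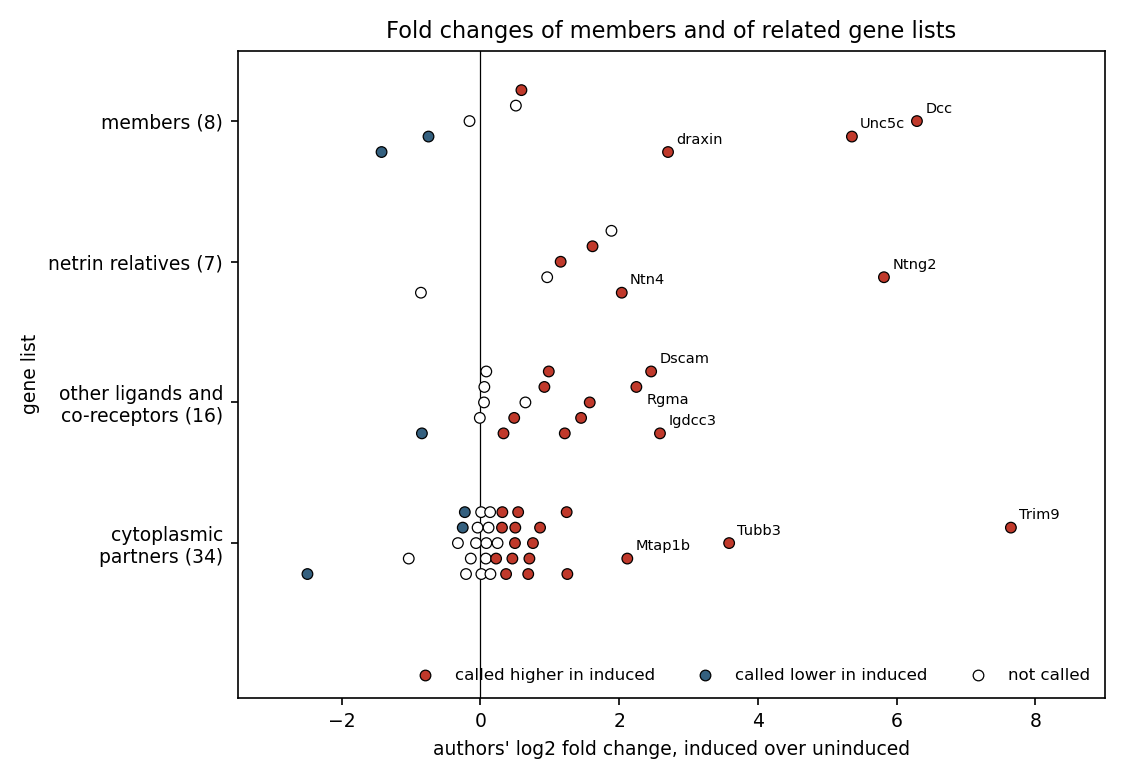
Authors' log2 fold changes of induced over uninduced cells for the 8 members and for the lists of 7, 16 and 34 related genes, 1 point a gene, spread vertically only for legibility. Dcc, Unc5c, Ntng2 and Trim9 lie above 5, and most cytoplasmic partners lie near 0.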

How the data were processed

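Gene-level values came from the authors' deposited table of 21937 genes. Its group means of normalized read counts were read as a signal, and the authors' fold change is a ratio of the induced over the uninduced mean, which held for 100% of genes with both means above 0 at a relative tolerance of 1e-06. The log2 fold change is the authors' too. The deposited p-values, given for 18283 genes, are from the authors' DESeq test, and the adjusted ones equalled a Benjamini-Hochberg adjustment in 100% of cases. Per the submitters' processing notes the build was mm9 and the tools, with no role given, were DESeq, HTSeq 0.5.4p1, TopHat2 2.0.8, SAMtools 0.1.19 and FastQC 2.6.14. Group means sum to 17359374 in induced and 17303851 in uninduced cells, which is no library's depth, so no counting interval is given. A second table has 4 library columns whose names match no sample label, and these were not used.

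Computed here, with Python 3.11.15, pandas 2.3.3, numpy 2.4.6 and matplotlib 3.10.9, were counts of calls, changes as log2(mean + 1), levels per kilobase and promoter motifs. The p adjustment and the calling of genes were tested on simulated data, and the other steps were not. Members, lists and tests were chosen with earlier results of these data known. Named genes are the members, Neurod1, up to 4 called genes per list with the smallest adjusted p, all called genes of the rarer direction, and the 3 genes nearest to the called member with the largest fold. A few genes that this rule takes are not named here. Genes named as not called or as overlapping were added after their values were seen. Alternatives were an adjusted p of 0.01, a 2-fold minimum, minimum means of 10 and 50, other pseudocounts and scalings, and another gene length.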

Additional observations from a re-analysis of the deposited data

How the results depend on the processing

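All 6 member calls were also made at an adjusted p of 0.01 and at minimum means of 10 and 50 with p adjusted again. With a minimum of 2-fold the members called lower numbered 1 (Ntn1, without Unc5b). In the same setting 7.48% of all genes were called higher and 4.2% lower. Of the 16 other ligands and co-receptors 6 were called, 6 higher and 0 lower, since the fall of Dscaml1 was under 2-fold. Of the 34 cytoplasmic partners 6 were called, 5 higher and 1 lower. At an adjusted p of 0.01 the cytoplasmic partners had 16 calls, 15 higher and 1 lower, beside 28.6% of all genes called in either direction. At a minimum mean of 50 the 7 netrin relatives had 2 calls, of which 2 were higher, since fewer genes were tested. In that setting 50.2% of the genes tested were called in either direction. The log2 changes of all 8 members kept their sign under pseudocounts of 0.5 and 5, equal totals and scaling by the median ratio, each within 1.5-fold, and Dcc ran from 5.58 to 6.20. The length of the longest transcript, chosen after seeing the data, moved the Unc5c share of the UNC5 sum as given above. No paired analysis was possible because the library columns carry no replicate number or group in their names. For that reason limma on the libraries, leaving out each library and a model of recovered reads were also not run. The spread between libraries was therefore not measured here, and low levels, as for Unc5a and Unc5d, limit what a missed threshold can show.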
